A study of Homo sapiens with 18 samples.

Results

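The YAP and TEAD target genes described here are 9 genes, CCN1, CCN2, THBS1, ANKRD1, AMOTL2, AJUBA, F3, CRIM1 and LATS2, out of 58051 genes in the count table. They were picked as known targets whose levels were lower in cells induced to express PPP2R3B, so their changes with induction are given as a description with no test. All 9 had enough reads to enter the comparisons in both cell lines. The libraries came from SKMEL2 and SKMEL30, established human melanoma cell lines that carry NRAS variants. Both lines carried pTRIPZ-PPP2R3B, a lentiviral vector from which doxycycline switches on a Myc-tagged PPP2R3B coding sequence (a tet-ON promoter). PPP2R3B encodes PR70, a regulatory subunit of the phosphatase PP2A. Each line was sequenced uninduced, after 6 hours and after 18 hours with doxycycline, with 3 libraries per group and 18 in all. The lines were puromycin-selected cells, and the uninduced cells carried the same vector. No group received doxycycline without the PPP2R3B insert, so a response to the drug and a response to PPP2R3B cannot be told apart. The labels do not say at which hour the uninduced cells were harvested, nor whether the libraries of a group came from separate cultures, so the spread between libraries may be technical.

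YAP and its relative TAZ (gene WWTR1) are transcriptional coactivators that do not bind DNA themselves and act through the TEAD transcription factors. When the Hippo kinases LATS1 and LATS2 are active, YAP and TAZ are phosphorylated and kept out of the nucleus. Cells with nuclear YAP typically express a set of secreted matrix proteins, cytoskeletal regulators and, as negative feedback, inhibitors of YAP itself; in melanoma such genes are known as part of an invasive, less pigmented state.

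TEAD factors recognise the letters CATTCC, which read GGAATG on the other strand. The promoters of CCN2, THBS1 and ANKRD1 are shown as examples. They carried matches to these letters upstream of the start of transcription, and all 3 genes were lower after induction in every comparison. AMOTL2, with a match in the second of its windows, met both points as well and is not shown. The sequences are the 250 bases upstream of the annotated start, from RefSeq on GRCh38.p14, at chr6:131951373-131951622 (minus strand) for CCN2, chr15:39580829-39581078 (plus strand) for THBS1 and chr10:90921088-90921337 (minus strand) for ANKRD1. They are written 5′ to 3′ on the strand of the gene, with the matches in capitals.
CCN2: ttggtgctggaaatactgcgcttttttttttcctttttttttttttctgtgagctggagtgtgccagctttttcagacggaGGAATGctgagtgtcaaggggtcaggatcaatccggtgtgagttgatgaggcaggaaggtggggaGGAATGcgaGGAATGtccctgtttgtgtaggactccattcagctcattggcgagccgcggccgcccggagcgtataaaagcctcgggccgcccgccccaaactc
THBS1: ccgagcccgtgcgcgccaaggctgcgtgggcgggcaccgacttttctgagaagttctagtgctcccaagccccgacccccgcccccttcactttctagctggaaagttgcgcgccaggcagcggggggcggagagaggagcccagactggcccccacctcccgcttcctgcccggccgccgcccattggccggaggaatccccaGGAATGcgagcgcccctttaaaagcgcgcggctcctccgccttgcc
ANKRD1: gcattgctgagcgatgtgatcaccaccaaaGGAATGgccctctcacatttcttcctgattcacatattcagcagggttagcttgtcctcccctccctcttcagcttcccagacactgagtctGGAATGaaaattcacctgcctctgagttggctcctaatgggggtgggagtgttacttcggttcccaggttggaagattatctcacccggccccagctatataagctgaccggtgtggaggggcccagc

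RefSeq windows of 300 bases around the start were at hand for 7 of the 9 genes, in 9 windows since AMOTL2 and AJUBA each had a pair of them; those of CCN1 and CRIM1 were not analysed here. CATTCC, searched on both strands, was present in 6 of these 7 genes. A gene was counted if any of its windows held a match, and the first windows of AMOTL2 and AJUBA held none. The shares of all promoters given below are per window. CCN2 had 3 matches, with their first base at positions -169, -104 and -95 from the start, and ANKRD1 had 2, at -220 and -128. THBS1 had 1 match at -46. AMOTL2 and AJUBA had 1 each in their second window, at -69 and -59, and LATS2 had 1 just after the start. F3 had none. Among 35116 promoters of the same length, 14.0% held at least 1 match, 1.37% at least 2 and 0.128% at least 3. The AP-1 motif TGANTCA occurred once in ANKRD1, where it did not overlap a CATTCC match, and in F3 at -223 and -210, against 7.71% of all promoters with at least 1 and 0.515% with at least 2. The CArG box, the motif of SRF, was in none of the 9 windows and in 1.29% of all promoters. These matches describe the letters in the windows only.

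**Figure D1:**
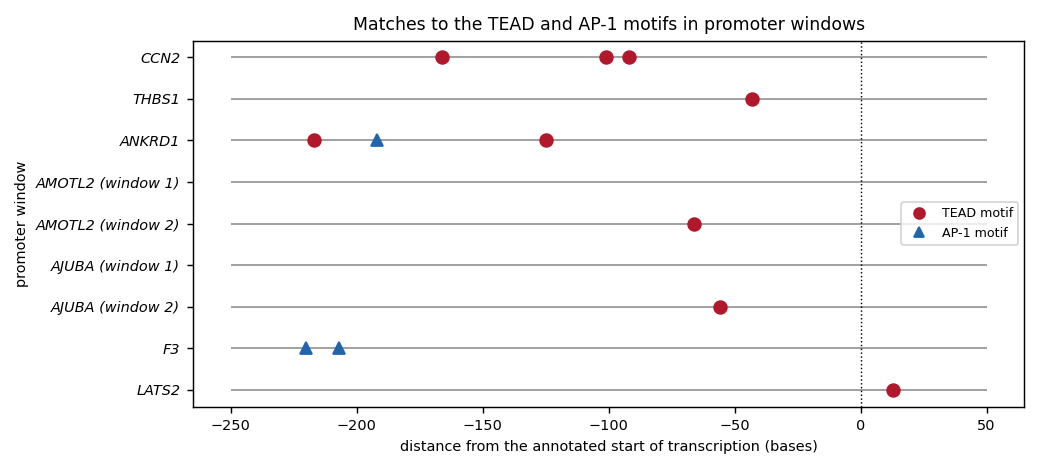
Matches to the TEAD motif (red circles) and the AP-1 motif (blue triangles) in the 9 promoter windows, plotted at the middle of each match as the distance in bases from the annotated start of transcription (dotted line). CCN2 carries 3 TEAD matches upstream of its start and ANKRD1 2, while F3 carries AP-1 matches only.

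The induced gene was checked first. PPP2R3B levels are given in CPM, the usual depth-scaled unit of RNA sequencing, which is the count of a gene relative to the total count of its library after scaling between libraries. In SKMEL2 it stood at 24.4, 20.5 and 17.2 CPM uninduced, at 343, 418 and 515 CPM after 6 hours and at 426, 512 and 484 CPM after 18 hours. In SKMEL30 the uninduced libraries held 22.4, 19.8 and 20.6 CPM, the 6-hour libraries 521, 535 and 566 CPM and the 18-hour libraries 617, 617 and 614 CPM. The labels and the levels thus went together in all 18 libraries. The libraries held 13402645 to 22383470 counts each (median 17958636). Of the melanocyte markers MITF, SOX10, PMEL, MLANA, TYR, TYRP1, DCT and S100B, all 8 had counts in every library, with summed levels of 4220 to 4920 CPM in SKMEL2 and 8800 to 9320 CPM in SKMEL30. Summed fibroblast markers reached at most 7.56 CPM in SKMEL2 and 33.6 CPM in SKMEL30.

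Of the 9 target genes, 7 had lower mean levels in the induced cells in all 4 comparisons (6 and 18 hours, each line). The exceptions were AJUBA and F3, which were lower in both SKMEL2 comparisons but not in both SKMEL30 comparisons. Among 14079 genes tested in both lines, 10.9% were lower in all 4 comparisons; since being lower was what the genes were picked for, nothing is read from their share. The 6-hour and 18-hour comparisons of a line share the same 3 uninduced libraries, so they are not independent of each other. The median log2 change of the 9 genes was -0.29 in SKMEL2 at 6 hours, -0.20 at 18 hours, -0.29 in SKMEL30 at 6 hours and -0.17 at 18 hours, beside medians between 0 and 0.003 over all genes tested. The lower levels were thus already present at 6 hours, and in SKMEL30 they were closer to the uninduced level at 18 hours for several genes.

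**Figure D2:**
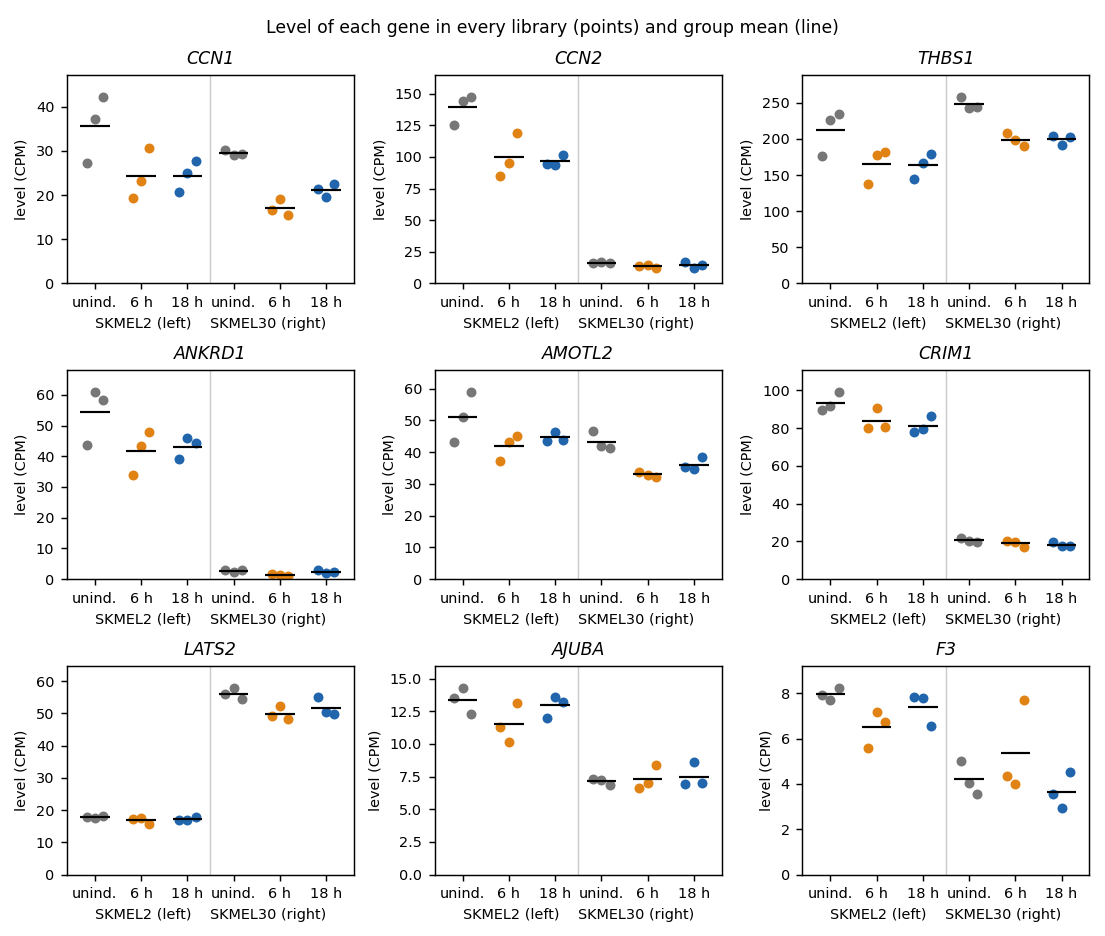
Level of each of the 9 genes in CPM in every library (points) with the mean of each group of 3 (line), SKMEL2 at the left and SKMEL30 at the right of each panel, in uninduced cells (grey), at 6 h (orange) and at 18 h (blue). The induced CCN1, THBS1 and AMOTL2 points of SKMEL30 all lie under the uninduced points of that line, whereas those of AJUBA and F3 intermix.

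CCN1, CCN2 and THBS1 encode secreted matrix proteins. CCN1 encodes a matricellular protein that binds integrins, lies at chromosome 1, 85580761 to 85583950 (GRCh38.p14), and is a direct and rapidly responding YAP target. In SKMEL2 it stood at 27.3, 37.2 and 42.2 CPM uninduced, 19.4, 23.3 and 30.6 CPM at 6 hours and 20.7, 24.9 and 27.6 CPM at 18 hours. In SKMEL30 the values were 30.2, 29.1 and 29.2 CPM uninduced, 16.5, 19.1 and 15.5 CPM at 6 hours and 21.3, 19.6 and 22.5 CPM at 18 hours. All 6 induced SKMEL30 libraries lay below all uninduced ones, while in SKMEL2 1 library of each induced group lay above the lowest uninduced library. The log2 change of CCN1 in SKMEL2 was -0.55 ± 0.18 (standard error, n = 3 per group, as for the changes that follow) at 6 hours and -0.55 ± 0.18 at 18 hours. In SKMEL30 it was -0.79 ± 0.07 at 6 hours, a level lower by 42.2%, and -0.48 ± 0.07 at 18 hours, lower by 28.2%.

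CCN2, a second matricellular protein of the same family and the most widely used readout of YAP activity, lies at chromosome 6, 131948176 to 131951372, and is the gene whose promoter carried 3 CATTCC matches. SKMEL2 held 126, 144 and 147 CPM uninduced, 85.0, 94.99 and 119 CPM at 6 hours and 94.7, 93.5 and 102 CPM at 18 hours. SKMEL30 held far less of it, with 16.0, 16.9 and 16.2 CPM uninduced, 14.1, 14.4 and 12.01 CPM at 6 hours and 16.97, 12.4 and 14.8 CPM at 18 hours. It was the only one of the 9 genes for which every induced SKMEL2 library, at both times, was below every uninduced one. In SKMEL30 this held at 6 hours only, since the first 18-hour library was the highest of the line. The log2 changes were -0.48 ± 0.11 and -0.53 ± 0.11 in SKMEL2 at 6 and 18 hours, and -0.29 ± 0.10 and -0.14 ± 0.10 in SKMEL30.

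THBS1 encodes thrombospondin 1, a large secreted glycoprotein of the matrix, and lies at chromosome 15, 39581079 to 39599466. Uninduced SKMEL2 held 176, 226 and 235 CPM, the 6-hour cells 138, 178 and 181 CPM and the 18-hour cells 144, 167 and 180 CPM. Uninduced SKMEL30 held 258, 242 and 244 CPM, the 6-hour cells 208, 198 and 190 CPM and the 18-hour cells 204, 192 and 203 CPM. The groups did not overlap in SKMEL30 at either time. In SKMEL2 the first uninduced library lay among the induced ones. The changes were close to each other in all 4 comparisons, at -0.36 ± 0.12 and -0.38 ± 0.12 on the log2 scale in SKMEL2 at 6 and 18 hours and -0.32 ± 0.04 and -0.31 ± 0.04 in SKMEL30.

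CRIM1, a membrane protein with cysteine-rich repeats that binds bone morphogenetic proteins, lies at chromosome 2, 36355778 to 36551135. Its levels in SKMEL2 were 89.5, 91.9 and 98.9 CPM uninduced, 79.9, 90.5 and 80.6 CPM at 6 hours and 77.7, 79.7 and 86.3 CPM at 18 hours, so only the 18-hour group was wholly below the uninduced one. In SKMEL30 they were 21.99, 19.9 and 19.5 CPM uninduced, 19.96, 19.8 and 17.2 CPM at 6 hours and 19.6, 17.6 and 17.3 CPM at 18 hours, with overlap at both times. The log2 changes ran from -0.20 to -0.12 over the 4 comparisons, with standard errors of 0.07 to 0.08.

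F3 encodes tissue factor, the cell-surface receptor that starts coagulation, and lies at chromosome 1, 94529173 to 94541759. Its promoter window had no CATTCC. SKMEL2 held 7.92, 7.71 and 8.23 CPM uninduced, 5.60, 7.18 and 6.74 CPM at 6 hours and 7.82, 7.78 and 6.56 CPM at 18 hours. The 6-hour SKMEL2 libraries lay below the uninduced ones, a log2 change of -0.29 ± 0.13, and the 18-hour libraries overlapped them, at -0.11 ± 0.13. SKMEL30 held 5.02, 4.04 and 3.55 CPM uninduced, 4.37, 4.01 and 7.71 CPM at 6 hours and 3.54, 2.94 and 4.51 CPM at 18 hours. The third 6-hour library stood far above the rest, and the log2 change at 6 hours, 0.37 ± 0.24, was -0.02 without it; at 18 hours the change was -0.19 ± 0.25.

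That library also held transcripts of keratinocyte markers. KRT5, a keratin of basal epidermis, stood at 37.5 CPM and its partner KRT14 at 26.4 CPM in the third 6-hour library of SKMEL30, with TP63 at 0.607 CPM and KRT1 at 0. The first 6-hour library held 2.96 CPM of KRT5 and 2.11 CPM of KRT14, and the third 18-hour library 6.49 and 4.18 CPM. The summed level of these 4 markers was 0.225 to 1.27 CPM in uninduced SKMEL30, 0.452 to 64.6 CPM at 6 hours and 0.134 to 10.7 CPM at 18 hours. In SKMEL2, where TP63 alone gave 18.8 to 23.1 CPM, the sum was 29.9 to 37.9 CPM uninduced, 22.7 to 26.7 CPM at 6 hours and 23.8 to 33.8 CPM at 18 hours, with KRT1 at 0 in all libraries. TP63 made up most of this sum, and KRT5 differed between libraries of a group. Uninduced SKMEL2 held 8.27, 5.22 and 3.61 CPM of KRT5. The 6-hour libraries held 0.166, 0 and 4.03 CPM and the 18-hour ones 5.85, 7.45 and 0 CPM. CCN1, CCN2 and THBS1 were highest in the third library of each SKMEL2 group. KRT5 in that library was the lowest of its group uninduced, the highest at 6 hours and 0 at 18 hours. The part of keratinocyte transcripts in the values of the target genes, including F3 and AJUBA, was not tested. Without the third 6-hour library the SKMEL30 log2 changes at 6 hours were -0.72 for CCN1, -0.29 for THBS1, -0.91 for ANKRD1 and -0.20 for CCN2.

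ANKRD1, an ankyrin repeat protein of the nucleus that acts as a transcriptional cofactor, lies at chromosome 10, 90912096 to 90921087. In SKMEL2 it was at 43.8, 60.8 and 58.3 CPM uninduced, 33.8, 43.4 and 47.9 CPM at 6 hours and 39.0, 46.1 and 44.3 CPM at 18 hours. The first uninduced library lay within the induced range. In SKMEL30 it was low, with 2.99, 2.13 and 3.04 CPM uninduced (53, 39 and 48 counts), 1.48, 1.405 and 1.07 CPM at 6 hours (19, 28 and 23 counts) and 2.99, 1.94 and 2.31 CPM at 18 hours (55, 29 and 42 counts). All 6-hour libraries of SKMEL30 lay below all uninduced ones, whereas the 18-hour libraries overlapped the uninduced ones and lay above all 6-hour ones. Its log2 change in SKMEL30 was -1.05 ± 0.24 at 6 hours, the largest of the 9 genes in any comparison, and -0.16 ± 0.22 at 18 hours; in SKMEL2 it was -0.38 ± 0.14 and -0.34 ± 0.14.

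AMOTL2, LATS2 and AJUBA encode regulators of the pathway itself. AMOTL2, an angiomotin family protein that binds YAP and holds it at cell junctions, lies at chromosome 3, 134355345 to 134375417. SKMEL2 had 43.3, 51.0 and 58.8 CPM uninduced, 37.1, 43.1 and 45.2 CPM at 6 hours and 43.6, 46.4 and 43.96 CPM at 18 hours, and the first uninduced library lay within the 6-hour range. SKMEL30 had 46.6, 42.0 and 41.2 CPM uninduced, 33.9, 32.9 and 32.3 CPM at 6 hours and 35.3, 34.6 and 38.4 CPM at 18 hours, with no overlap between uninduced and induced libraries. The log2 changes were -0.29 ± 0.11 and -0.20 ± 0.11 in SKMEL2 at 6 and 18 hours, and -0.40 ± 0.06 and -0.26 ± 0.06 in SKMEL30.

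LATS2, the kinase that phosphorylates YAP and is itself induced by it, lies at chromosome 13, 20973036 to 21061586. Its SKMEL2 levels were 17.8, 17.5 and 18.0 CPM uninduced, 17.1, 17.6 and 15.7 CPM at 6 hours and 16.97, 16.95 and 17.8 CPM at 18 hours, and the groups overlapped. Its SKMEL30 levels were 55.9, 57.9 and 54.3 CPM uninduced, 49.1, 52.2 and 48.4 CPM at 6 hours and 55.2, 50.3 and 49.9 CPM at 18 hours, with no overlap at 6 hours only. The log2 changes in SKMEL2, -0.08 ± 0.07 and -0.05 ± 0.07, were about the size of their errors, and those in SKMEL30 were -0.17 ± 0.05 and -0.11 ± 0.05.

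AJUBA encodes a LIM-domain scaffold that binds the LATS kinases and restrains them, and lies at chromosome 14, 22971177 to 22982551. SKMEL2 held 13.5, 14.3 and 12.3 CPM uninduced, 11.3, 10.1 and 13.1 CPM at 6 hours and 12, 13.6 and 13.2 CPM at 18 hours. SKMEL30 held 7.33, 7.204 and 6.84 CPM uninduced, 6.63, 6.98 and 8.41 CPM at 6 hours and 6.91, 8.61 and 6.98 CPM at 18 hours. All 4 pairs of groups overlapped. The log2 changes were -0.21 ± 0.11 and -0.05 ± 0.11 in SKMEL2, and 0.05 ± 0.12 and 0.06 ± 0.12 in SKMEL30; without the third 6-hour library of SKMEL30 the 6-hour value was -0.07, and without the second 18-hour library, whose KRT5 was at 0, the 18-hour value was -0.04.

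**Figure D3:**
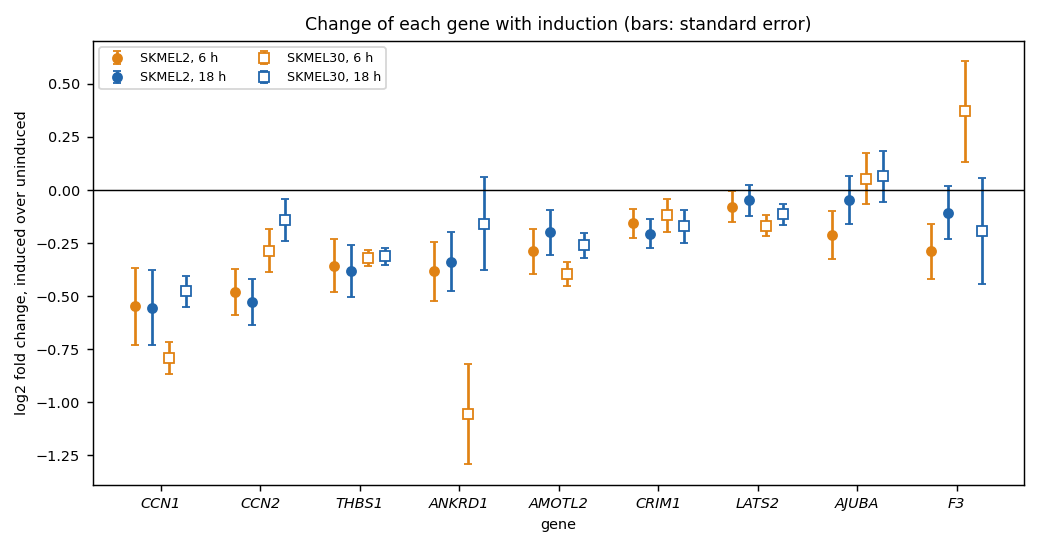
Log2 fold change of each of the 9 genes, induced over uninduced, with bars of 1 standard error, in SKMEL2 (filled circles) and SKMEL30 (open squares) at 6 h (orange) and 18 h (blue). The 4 changes of THBS1 lie between -0.38 and -0.31, while ANKRD1 in SKMEL30 goes from -1.05 at 6 h to -0.16 at 18 h.

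Between the induced times, the 9 SKMEL2 genes differed by -0.05 to 0.18 on the log2 scale (18 over 6 hours), with no common direction. In SKMEL30 ANKRD1 was higher at 18 than at 6 hours by 0.90 ± 0.24, CCN1 by 0.31 ± 0.08, CCN2 by 0.15 ± 0.10 and AMOTL2 by 0.13 ± 0.06, and THBS1 was level at 0.01 ± 0.04. F3 was lower by 0.56 ± 0.24, with the third 6-hour library in the comparison. The difference of the lines' responses (SKMEL2 minus SKMEL30) at 6 hours was 0.67 ± 0.33 for ANKRD1, 0.23 ± 0.22 for CCN1, -0.04 ± 0.14 for THBS1, -0.27 ± 0.17 for AJUBA and -0.66 ± 0.29 for F3, the last pair with the third 6-hour library of SKMEL30 in the comparison, and at 18 hours it was -0.39 ± 0.17 for CCN2. These differences were not tested for the 9 genes, since the time and the line entered their choice.

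Every induced library lay below every uninduced one for 2 of the 9 genes in SKMEL2 at 6 hours (CCN2 and F3), against 3.61% of all genes tested, and for 2 at 18 hours (CCN2 and CRIM1), against 6.89%. In SKMEL30 this held for 6 genes at 6 hours, all but AJUBA, F3 and CRIM1, against 5.84%, and for 3 at 18 hours (CCN1, THBS1 and AMOTL2), against 8.13%. In the fit across all genes (edgeR's quasi-likelihood test, adjusted p under 0.05), 3 of the 9 genes were called lower in SKMEL30 at 6 hours (CCN1, THBS1 and AMOTL2) and 2 at 18 hours (CCN1 and THBS1), where 0.113% and 0.12% of 15026 genes were called lower. In SKMEL2 0 of the 9 were called at either time, where 0% of 16120 genes were called lower. With no filter on low counts, 4 of the 9 (CCN1, CCN2, THBS1 and ANKRD1) were called in SKMEL2 at each time. CCN2 was also called there at 6 hours without the third 6-hour library and at 18 hours with only the 6 libraries compared, and THBS1 at 18 hours with the replicate number as a block. Those SKMEL2 fits, and DESeq2, called more of all genes than the main fit, by far the most without the filter. The closing section lists these counts. DESeq2 called CCN2 in SKMEL2 at each time, and in SKMEL30 the same 3 genes at 6 hours but THBS1 alone at 18 hours. Leaving out 1 library at a time kept CCN1 and THBS1 called at 6 hours in 6 of 6 fits; AMOTL2 was lost without the first uninduced or the third 6-hour library. At 18 hours THBS1 was called in 6 of 6 fits and CCN1 in 3, being lost without the first uninduced, the first 18-hour or the second 18-hour library. With all 18 libraries in one fit, 0 of the 9 genes were called in SKMEL30 at either time. These counts rest on the contrasts that chose the genes and support nothing beyond the values above. The number of all genes called in SKMEL30 also depended on single libraries: 31 genes were called at 6 hours, 16 without the first uninduced, 20 without the third uninduced and 17 without the third 6-hour library, and 44 at 18 hours, with 25 to 30 when any 1 of the 6 libraries was left out.

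The levels before induction were not used to pick the genes and were tested. Between uninduced SKMEL30 and uninduced SKMEL2, 7 of the 9 genes differed (edgeR's quasi-likelihood test, Benjamini-Hochberg adjusted over 17133 genes). This was close to the whole transcriptome, in which 75.9% of the genes tested differed between the lines. CCN2 was 8.51-fold higher in SKMEL2, at 139 ± 11.9 CPM (SD, n = 3) against 16.3 ± 0.458 CPM in SKMEL30 (log2 difference, SKMEL30 minus SKMEL2, -3.09 ± 0.12, adjusted p = 4.91e-15). ANKRD1 was 20.1-fold higher in SKMEL2, at 54.3 ± 9.16 against 2.72 ± 0.512 CPM (adjusted p = 1.91e-14), and CRIM1 4.56-fold higher, at 93.4 ± 4.88 against 20.5 ± 1.33 CPM (adjusted p = 1.25e-15). LATS2 went the other way and was 3.15-fold higher in SKMEL30, at 56.0 ± 1.76 against 17.8 ± 0.268 CPM (adjusted p = 2.8e-15). AJUBA and F3 were lower in SKMEL30 by smaller amounts, with log2 differences of -0.90 ± 0.12 (adjusted p = 7.51e-07) and -0.92 ± 0.20 (adjusted p = 0.000424).

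The remaining genes stood at similar levels in the uninduced lines. AMOTL2 was lower in SKMEL30 by 0.24 on the log2 scale (-0.24 ± 0.09, adjusted p = 0.0188 by edgeR), a call that was lost without the third uninduced SKMEL2 library (adjusted p = 0.193) or without the second or the third uninduced SKMEL30 library (adjusted p = 0.0904 and 0.0917). CCN1 (-0.28 ± 0.15, adjusted p = 0.0948) and THBS1 (0.22 ± 0.10, adjusted p = 0.0529) did not pass the threshold in the same edgeR fit; CCN1 passed it without the first uninduced SKMEL2 library (adjusted p = 0.00992), and THBS1 without the second (adjusted p = 0.0355) or the third (adjusted p = 0.0177). The 3 genes at similar levels in both lines, CCN1, THBS1 and AMOTL2, were also the 3 whose induced and uninduced SKMEL30 libraries did not overlap at either time; this was seen after the values and was not tested.

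Scaled to length (CPM per kilobase of merged exons), uninduced SKMEL2 expressed CCN2 most, at 59.5 ± 5.09, then ANKRD1 at 30.3 ± 5.12, THBS1 at 23.2 ± 3.45, CRIM1 at 12.8 ± 0.672, CCN1 at 9.62 ± 2.06 and AMOTL2 at 7.88 ± 1.196. LATS2, F3 and AJUBA were lowest, at 3.17 ± 0.0472, 2.76 ± 0.0906 and 2.27 ± 0.172. The libraries of ANKRD1 and THBS1 overlapped, as did those of CCN1 and AMOTL2. In uninduced SKMEL30 the order began with THBS1 at 27.1 ± 0.965 and LATS2 at 9.98 ± 0.314, followed by CCN1 at 7.98 ± 0.169, CCN2 at 6.99 ± 0.195, AMOTL2 at 6.68 ± 0.452 and CRIM1 at 2.82 ± 0.183. ANKRD1, F3 and AJUBA closed it, at 1.52 ± 0.286, 1.46 ± 0.260 and 1.21 ± 0.0432. CCN2 overlapped AMOTL2 there, and F3 overlapped both ANKRD1 and AJUBA. Merged exons pool all annotated transcripts of a gene, so the length used can exceed that of the transcript expressed. For CCN1 it was 3698 bases, more than the span of the gene given above. The order of genes with close values may depend on this choice.

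How far the genes moved together from replicate to replicate was a further measure that the choice of genes did not use. After the mean of each group was removed, the 36 pairs of genes had a mean Pearson correlation of 0.32 over the 9 SKMEL2 libraries, with 26 pairs above 0, beside a mean of 0.005 over all pairs of the 16120 genes tested. In SKMEL30 the mean was 0.16, with 22 pairs above 0, beside 0.001. Among CCN1, CCN2, THBS1, ANKRD1 and AMOTL2, a set seen after the values, pair correlations were 0.74 to 0.94 in SKMEL2 and 0.18 to 0.76 in SKMEL30. In SKMEL2 the first library of each group lay below its group mean in at least 7 of the 9 genes. The overlap between induced and uninduced SKMEL2 libraries for CCN1, THBS1, ANKRD1 and AMOTL2 came from the first uninduced library alone. AJUBA went against CCN1, CCN2, THBS1, ANKRD1 and AMOTL2 in SKMEL30, with a correlation of -0.88 with CCN2. These correlations are over 9 libraries that share their depth and their scaling. Removing the group means leaves fewer free values than 9 per gene. The means over all genes were not matched to the 9 genes in level or spread. Leaving out 1 library at a time gave means of 0.21 to 0.41 in SKMEL2 and 0.08 to 0.21 in SKMEL30.

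**Figure D4:**
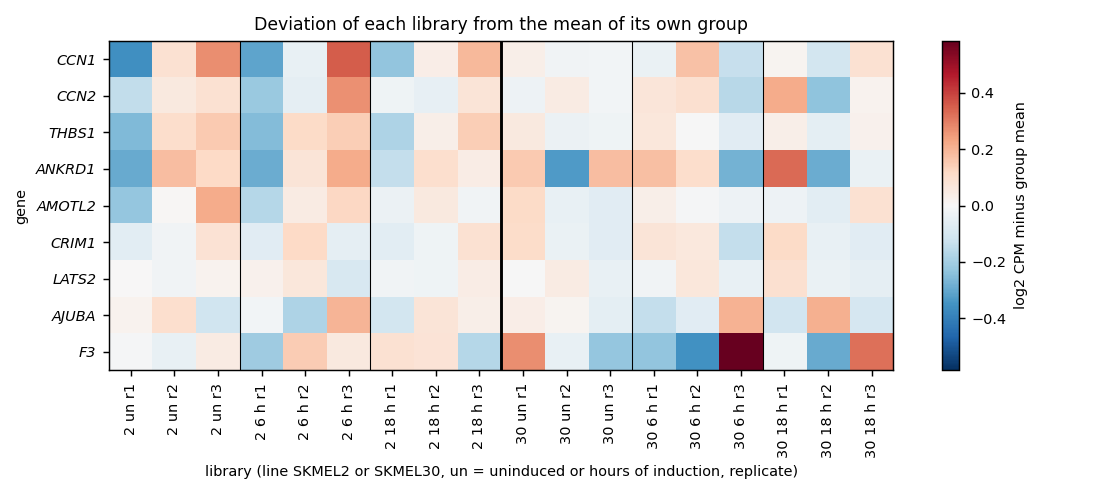
Deviation of each library from the mean of its own group, in log2 CPM, for the 9 genes (rows) and the 18 libraries (columns; 2 is SKMEL2, 30 is SKMEL30, un is uninduced, r is the replicate). The first library of each SKMEL2 group is blue across CCN1, THBS1, ANKRD1 and AMOTL2, and F3 is darkest red in the third 6 h library of SKMEL30.

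The genes whose pattern was most like that of the 9 were found by their Pearson correlation, over the 18 libraries with the mean of each line removed, with the mean of the standardised 9 genes. Among the 14079 genes tested in both lines, leaving out the 9 themselves, DKK1, a secreted WNT inhibitor, came first at 0.89, then DLC1 at 0.88, MEF2C, a transcription factor, at 0.82, EXT1, a heparan sulfate polymerase, at 0.81, and TXNDC11 at 0.79. Within the 9, the correlation of a gene with the mean of the other 8 was 0.93 for THBS1, 0.92 for CCN1, 0.89 for AMOTL2 and 0.83 for CCN2, but 0.02 for AJUBA and 0.01 for F3. The fit across all genes called DKK1 (log2 change -0.70 ± 0.10, adjusted p = 0.00716 by edgeR) and MEF2C (-0.23 ± 0.04, adjusted p = 0.0366) lower in SKMEL30 at 6 hours. Neither was called in SKMEL30 at 18 hours (adjusted p = 0.199 and 0.0538 by edgeR) or in SKMEL2 at either time. EXT1 and TXNDC11 were called in none of the 4 comparisons with uninduced cells. These genes were selected by a pattern that includes the same libraries.

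Other known targets of YAP and TEAD had median changes nearer 0 than the 9 genes, which were chosen for being lower. Lists of 15 core and 49 broader targets, none among the 9, were set beside them. Of these 64 genes, 60 were tested in SKMEL2 and 58 in SKMEL30, and in SKMEL2 30 of them were lower than uninduced at 6 hours and 36 at 18 hours, beside 49.1% and 50% of all genes. The SKMEL30 counts were 34 and 42, beside 49.7% of all genes at either time. Their median log2 changes were 0.00 and -0.04 in SKMEL2 and -0.02 and -0.06 in SKMEL30. The core list alone was lower for 9 and 10 of 14 genes in SKMEL2 (medians -0.07 and -0.09) and for 11 and 10 of 15 in SKMEL30 (medians -0.07 and -0.04). The broader list was lower for 21 and 26 of 46 genes in SKMEL2 (medians 0.01 and -0.02) and for 23 and 32 of 43 in SKMEL30 (medians -0.01 and -0.07). In SKMEL2 edgeR called 0 of them at either time, with 5 lower and 0 higher at an unadjusted p under 0.05 at 6 hours (beside 1.86% of all genes lower) and 6 lower and 2 higher at 18 hours (beside 2.51% lower), and DESeq2 called 1 (DLC1, lower at 6 hours) and 0. In SKMEL30 edgeR called 1 lower at 6 hours and 2 at 18 hours, with 0 called higher, and DESeq2 called 1 and 4 lower. At an unadjusted p under 0.05, 8 and 13 were lower and 0 higher, beside 3.23% and 4.83% of all genes lower.

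DLC1 fell in SKMEL30 from 160 ± 0.792 CPM (SD, n = 3) to 138 ± 4.41 CPM at 6 hours (log2 change -0.22 ± 0.03, adjusted p = 0.0108 by edgeR) and to 135 ± 4.40 CPM at 18 hours (-0.25 ± 0.03, adjusted p = 0.00272). The 6-hour call was lost without the first uninduced library (adjusted p = 0.08) or the third 6-hour library (adjusted p = 0.0749), stood at the threshold without the third uninduced library (adjusted p = 0.05), and was lost with all 18 libraries in one fit (adjusted p = 0.21 at 6 hours and 0.0547 at 18 hours). In SKMEL2 the level was 82.5 ± 2.88 CPM uninduced, 64.8 ± 3.58 CPM at 6 hours and 70.4 ± 1.53 CPM at 18 hours; its log2 change at 6 hours, -0.35 ± 0.06, had an adjusted p of 0.321 by edgeR, of 0.0019 by DESeq2 and of 0.00297 with all 18 libraries in one fit. MYOF, the membrane repair protein myoferlin, fell in SKMEL30 at 18 hours, from 231 ± 2.38 to 193 ± 1.09 CPM (-0.26 ± 0.03, adjusted p = 0.000186), and not detectably at 6 hours, at 220 ± 4.47 CPM (-0.07 ± 0.03, adjusted p = 0.666). Its adjusted p at 18 hours was 1 with all 18 libraries in one fit. MYOF was also lower at 18 than at 6 hours in SKMEL30 (-0.19 ± 0.03, adjusted p = 0.0381 by edgeR). In SKMEL2 MYOF stood at 55.8 ± 11.0 CPM uninduced, 49.5 ± 10.4 CPM at 6 hours and 37.6 ± 5.24 CPM at 18 hours. Its log2 change there at 18 hours, -0.57 ± 0.17, did not pass the threshold (adjusted p = 0.944 by edgeR) but did with the replicate block (adjusted p = 0.0317) and with no filter on low counts (adjusted p = 5.64e-08).

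The other genes of these lists with the smallest p-values did not pass the threshold by edgeR. They were PMP22 (-0.31 ± 0.10) and PTPN14 (-0.20 ± 0.07) in SKMEL2 at 6 hours, both with an adjusted p of 0.989, and NDRG1 (0.31 ± 0.07, adjusted p = 0.641) and TGM2 (-0.42 ± 0.10, adjusted p = 0.789) in SKMEL2 at 18 hours. In SKMEL30 they were PMP22 (-0.14 ± 0.03, adjusted p = 0.0857) and ETV5 (-0.09 ± 0.03, adjusted p = 0.463) at 6 hours and ITGB5 (-0.14 ± 0.04, adjusted p = 0.139) at 18 hours, all by edgeR. DESeq2 did call ITGB5 lower in SKMEL30 at 18 hours, together with FLNA, DLC1 and MYOF.

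**Figure D5:**
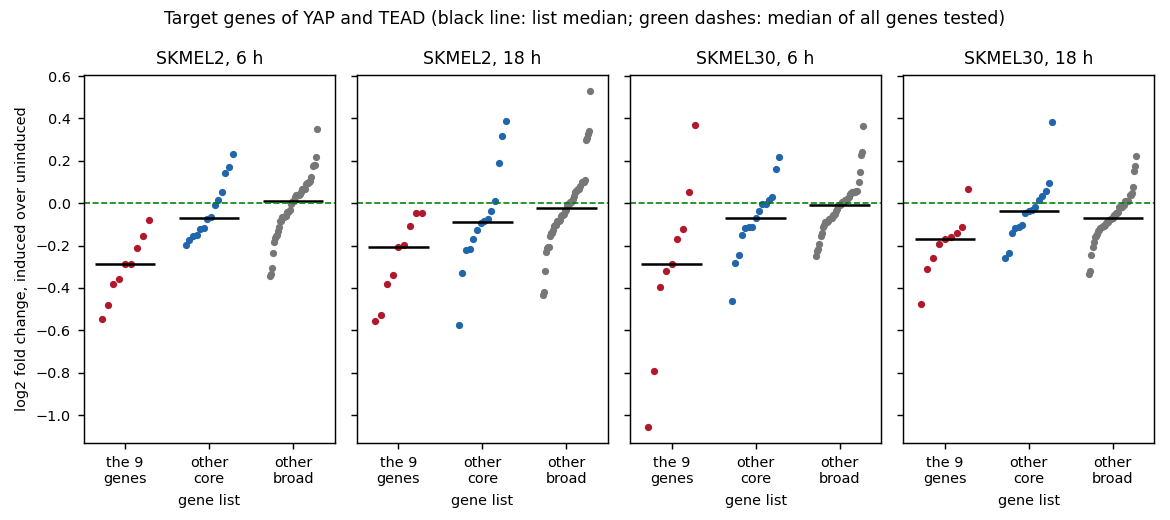
Log2 fold change, induced over uninduced, of the 9 genes (red), the other core targets (blue) and the other broad targets (grey), 1 point per gene tested, in each line and time, with the median of each list (black line) and of all genes tested (green dashes). The 9 genes, which were chosen for being lower, have medians of -0.29 to -0.17, the other core targets of -0.09 to -0.04 and the other broad targets of -0.07 to 0.01.

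Levels of the coactivators and their DNA-binding partners did not pass the test in any comparison with uninduced cells. The regulator list held 20 genes, 18 with enough reads in SKMEL2 and 17 in SKMEL30. None was called by edgeR, with 0 and 2 of them lower at an unadjusted p under 0.05 in SKMEL2 at 6 and 18 hours and 2 and 6 in SKMEL30. The shares of all genes lower at that p were 1.86% and 2.51% in SKMEL2 and 3.23% and 4.83% in SKMEL30. At the same p, 1 regulator was higher in SKMEL30 at 6 hours, the kinase cofactor MOB1B (0.11 ± 0.03, adjusted p = 0.445 by edgeR), and 0 in the other 3 comparisons. The 2 lower ones in SKMEL30 at 6 hours were WWC1 (-0.18 ± 0.04, adjusted p = 0.252 by edgeR) and VGLL4 (-0.14 ± 0.05, adjusted p = 0.559). The 6 lower ones in SKMEL30 at 18 hours were TEAD1, TEAD2, VGLL4, LATS1, STK3 and NF2. Their adjusted p-values were at least 0.353 by edgeR. MOB1B, WWC1, VGLL4, LATS1, STK3 and NF2 are named after their values were seen. YAP1 stood at 175 ± 8.82, 171 ± 14.1 and 179 ± 4.41 CPM in uninduced, 6-hour and 18-hour SKMEL2, and at 114 ± 3.90, 112 ± 3.90 and 113 ± 4.27 CPM in SKMEL30. WWTR1, which encodes TAZ, stood at 452 ± 10.7, 416 ± 26.7 and 413 ± 8.44 CPM in SKMEL2 and at 302 ± 4.62, 295 ± 8.47 and 304 ± 4.03 CPM in SKMEL30. For TEAD1, TEAD2, TEAD3 and TEAD4 the SKMEL2 log2 changes lay between -0.13 and 0.11 and the SKMEL30 ones between -0.25 and -0.05, all with an adjusted p of at least 0.475 by edgeR. Before induction, YAP1 and WWTR1 were both lower in SKMEL30 than in SKMEL2, with log2 differences of -0.62 ± 0.06 (adjusted p = 5.05e-09) and -0.58 ± 0.04 (adjusted p = 3.68e-10).

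Transcripts of actin cytoskeleton and serum-responsive genes, several of which share signals with the 9 targets, were looked at as well. The summed level of 11 actin cytoskeleton genes driven by SRF was 6890 to 7010 CPM in uninduced SKMEL30. It was 6110 to 6510 CPM at 6 hours and 6380 to 6440 CPM at 18 hours, with no overlap with uninduced cells. Among all single genes tested in SKMEL30, 5.84% and 8.13% were lower without overlap at 6 and 18 hours. Of the 11 genes, 8 were tested in SKMEL30 and 7 in SKMEL2, and the most abundant weigh most in a sum. In SKMEL2 the ranges were 4440 to 5000, 4490 to 5100 and 4320 to 4660 CPM. ACTG1, cytoplasmic gamma actin, fell in SKMEL30 at 6 hours (-0.15 ± 0.02, adjusted p = 0.0172 by edgeR) and was at -0.12 ± 0.02 at 18 hours (adjusted p = 0.0584), and ACTB was at -0.13 ± 0.03 at 18 hours (adjusted p = 0.185). In SKMEL2 at 18 hours TPM1 (-0.28 ± 0.11) and CNN2 (-0.20 ± 0.09) had the smallest p-values of the list, each with an adjusted p of 0.987. The summed level of 17 immediate early genes was 778 to 793 CPM in uninduced SKMEL30, 740 to 777 CPM at 6 hours and 746 to 781 CPM at 18 hours, and edgeR called none of them in either line. FOSL1 (-0.20 ± 0.05, adjusted p = 0.187) and NR4A1 (-0.20 ± 0.05, adjusted p = 0.197) had the smallest p-values in SKMEL30 at 18 hours, and IER3 (-0.26 ± 0.10) and ATF3 (-0.51 ± 0.24), both with an adjusted p of 0.987, in SKMEL2. The part of these genes in the values of the 9 targets was not tested.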

How the data were processed

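RNA sequencing of 18 libraries (poly(A) libraries made with a KAPA mRNA HyperPrep kit, paired-end) gave 1 table of expected counts per gene, which the authors made by trimming adapters, aligning to GRCh38 (Ensembl release 86) with STAR and estimating counts with RSEM; the submitters' processing notes list RSEM 1.3.0, SAMtools 1.8, Trimmomatic 0.36, cutadapt 1.5 and STAR 2.2.2a, and the study's methods name other versions of cutadapt and STAR. Whether counting used the strand is not given in the sources used here. The deposited expected counts, 12.3% of which were not whole, were rounded. Ensembl identifiers were matched to symbols for 55604 of 58051 genes. Libraries were grouped by the cell line and treatment in the labels, which give 18 hours for the later time; the study's text gives a slightly shorter one.

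The 9 genes and all gene lists were chosen with earlier results of these data known. Named beside them were PPP2R3B, the listed targets called or with the 3 smallest p-values in a comparison, YAP1, WWTR1 and the TEAD genes. Also named were the 2 actin cytoskeleton and 2 immediate early genes with the smallest p-values per line at 18 hours. The 5 genes most like the 9 were named too. ACTG1 at 6 hours, MOB1B, WWC1, VGLL4, LATS1, STK3, NF2 and the keratinocyte transcripts were singled out after their values were seen. Genes were filtered with filterByExpr, scaled by TMM and tested with edgeR 4.0.16 (R 4.3.3, quasi-likelihood test, limma 3.58.1 as its base, Benjamini-Hochberg adjustment, threshold 0.05), with the 9 libraries of a line in 1 fit and all 18 for comparisons between lines; the code was tested on simulated data. CPM values used TMM factors over all 18 libraries (0.957 to 1.06). DESeq2 1.42.0, other scaling, filters, fits and left-out libraries served as alternatives. Library totals were 13402645 to 22383470, and counting error was not separated from the spread between replicates. Replicates of a group differed by more than sampling noise in each of 18 pairs (chi-square per degree of freedom 2.08 to 18.6).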

Additional observations from a re-analysis of the deposited data

How the results depend on the processing

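The log2 changes of the 9 genes with induction were recomputed under DESeq2, other scaling factors, other filters, the replicate block and with each library left out. Of 468 such values, 467 moved by less than the pooled standard deviation between replicates of the line. The exception was F3 in SKMEL30 at 6 hours, at -0.02 without the third 6-hour library. These settings reuse the same counts, and leaving out 1 library seldom shifts a group mean that far. Little is therefore read from this count. The sign changed in 5 values, all of AJUBA or F3. Of 108 values for the uninduced lines, 3 lost the threshold, 8 passed it and 0 reversed, all in CCN1, THBS1 and AMOTL2.

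The number of genes called depended on the filter and the fit; the cause was not tested. In SKMEL2 at 6 hours 2 genes were called, 8 by DESeq2, 158 with no filter on low counts and 6 with all 18 libraries in one fit, and other targets called lower numbered 0, 1, 2 and 1. At 18 hours 2 were called, against 9, 168 and 7 in the same order and 9 with only the 6 libraries compared, with 2 other targets lower without the filter. In SKMEL30 at 6 hours 31 were called, 321 with no filter and 5 with all 18 libraries in one fit, with 1, 2 and 0 other targets lower. At 18 hours 44 were called, 68 by DESeq2, 359 with no filter and 9 with all 18, with 2, 4, 5 and 0 other targets lower. Between 18 and 6 hours 0 were called in SKMEL2 (5 by DESeq2, 135 with no filter) and 3 in SKMEL30 (10, 197, 5 with at least 10 counts in every library, 0 with only 6 libraries and 0 with all 18). The response differed between the lines for 0 genes at 6 hours (237 with no filter) and 1 at 18 hours (3 by DESeq2, 216 with no filter).

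Leaving out 1 library at a time gave 2 to 5 and 2 to 2 genes in SKMEL2 at 6 and 18 hours, 16 to 33 and 25 to 30 in SKMEL30, 0 to 1 and 0 to 5 between the times, 0 to 1 and 1 to 2 for the difference between lines, and 12557 to 12759 of 13004 between the uninduced lines; other targets lower in SKMEL30 at 6 hours numbered 0 to 1. The mean pair correlation of the 9 genes was 0.209 to 0.408 in SKMEL2 and 0.084 to 0.208 in SKMEL30. MYOF was among the 3 genes lower at 18 than at 6 hours in SKMEL30, a count that was 0 without the third 6-hour, the second 18-hour or the third 18-hour library.

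Over all genes tested, replicate numbers showed little pairing of the libraries: same-numbered libraries of different groups had correlations of their deviations above 0.1 in 2 of 9 SKMEL2 cases (range -0.12 to 0.14) and 1 of 9 SKMEL30 cases (range -0.03 to 0.14). The 9 genes did follow the replicate number in SKMEL2. Their mean log2 deviation in uninduced, 6-hour and 18-hour cells was -0.148, -0.166 and -0.079 in the first library. In the third it was 0.098, 0.134 and 0.048. SKMEL30 showed no such order, and the source of the SKMEL2 order was not tested. With the replicate block 3 and 7 genes were called in SKMEL2 at 6 and 18 hours (0 and 1 other target lower), 40 and 37 in SKMEL30, 16 between its times, and THBS1 in SKMEL2 at 18 hours.

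Depth limited ANKRD1 in SKMEL30, where 19 to 55 counts lay behind each value.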
